A study of Mus musculus with 62 samples.

Results

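The 83 genes described here code for the proteins of the cytosolic ribosome, and they were followed through 62 RNA-seq libraries of mouse striatum. They were chosen by symbol from the 48795 gene rows of the count table: protein-coding rows whose symbol starts with Rpl or Rps and a number, or is Rplp0, Rplp1, Rplp2 or Rpsa, without the S6 kinases, without symbols ending in -ps, and with a mean over all libraries of at least 1 CPM (counts-per-million of the library total). Of 86 such rows, 83 passed, 49 of the large and 34 of the small subunit, spread over 19 chromosomes. The 3 left out were the paralogs Rpl3l (0.20 CPM), Rpl39l (0.0524 CPM) and Rpl10l, which had 0 of 2414196232 counts, a count that allows up to 0.00124 CPM. The lowest members inside the limit were Rps29 (2.08 CPM), Rpl23a (2.09 CPM) and Rpl24 (2.10 CPM). The symbol rule also takes in Rps19bp1, a protein that binds a ribosomal protein and is not one itself, and Rpl7l1, a relative of Rpl7; it leaves out Fau and Rack1.

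The libraries come from 2 mouse models of Huntington's disease given viruses with a zinc finger protein (ZFP) or control viruses (Delta). R6/2 mice, which carry a transgenic piece of mutant huntingtin (mHTT), and mice labelled NCAR were injected at 4 weeks with PHP.eB AAV (an AAV capsid that crosses into the brain), and bulk striatal RNA was taken at 11 weeks: R6/2 with A-ZFP (n = 3), R6/2 with A-Delta, NCAR with A-ZFP, NCAR with A-Delta, R6/2 with N-ZFP, R6/2 with N-Delta, NCAR with N-ZFP and NCAR with N-Delta (n = 4 each). zQ175 mice, a knock-in of an expanded repeat into the huntingtin gene, and WT mice were injected into the striatum at 6 months with N-ZFP or N-Delta, and RNA was taken at 12 months from bulk striatum and as neuron-specific RNA (n = 4 each, but 3 bulk libraries of WT with N-ZFP). ZFP is the working repressor of mHTT and Delta its control virus. Every mouse in the study, NCAR and WT included, was given a ZFP or a Delta virus, and none was uninjected. By the cell type label A stands with astrocytes and N with neurons, but in the R6/2 series the treatment protocol describes the N constructs as astrocytic; the columns of the count table call the neuronal libraries IP and the bulk ones of that series Input, and how the neuronal RNA was isolated beyond this, the promoters of the viruses and the strain are not given in the sources used here.

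These proteins are assembled around ribosomal RNA in fixed proportions, and the acidic proteins Rplp1 and Rplp2 form with Rplp0 the stalk that recruits the factors of elongation. The mRNAs are short and abundant, and in vertebrates most begin with a C followed by a run of pyrimidines, the 5′ terminal oligopyrimidine (TOP) motif, through which the mTOR pathway and LARP1 set their translation. In striatum, whose projection neurons are lost or silenced in Huntington's disease, they are transcribed in neurons and glia alike.

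To show this shared start, 30 bases around the annotated start of transcription (15 before it and 15 from it on, RefSeq, GRCm38.p6, sense strand, 5′ to 3′) are given for members that the results turn on. Capitals mark a C followed by at least 4 bases that are C or T, beginning within 5 bases of the start, searched on the transcribed strand only.
Rpl31: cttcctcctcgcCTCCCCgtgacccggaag
Rps18: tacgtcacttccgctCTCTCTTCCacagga
Rps6: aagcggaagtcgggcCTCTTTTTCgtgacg
Rplp2: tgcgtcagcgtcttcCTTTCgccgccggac
Rpsa: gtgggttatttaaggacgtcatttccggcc
Rpl26: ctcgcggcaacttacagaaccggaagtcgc
Rpl22: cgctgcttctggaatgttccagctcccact
Rpl7l1: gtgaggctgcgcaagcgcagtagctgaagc
Rps19bp1: cagggcggaagtagctcgccgcgtgtgggc
These lie at chr1:39367836-39367865 (+, Rpl31), chr17:33955651-33955680 (−, Rps18), chr4:86857353-86857382 (−, Rps6), chr7:141447636-141447665 (+, Rplp2), chr9:120127751-120127780 (+, Rpsa), chr11:68901551-68901580 (+, Rpl26), chr4:152324421-152324450 (+, Rpl22), chr17:46782642-46782671 (−, Rpl7l1) and chr15:80264292-80264321 (−, Rps19bp1). Of the 83 members, 63 had a promoter in the RefSeq table and 20, Rplp1 among them, had none. Counted by promoter, since a gene can have several, the motif stood in 32 of the members' 74 promoters (43.2%) and in 6027 of the 32851 promoters of all genes (18.3%). Counted by gene, 30 of the 63 members had it in at least 1 promoter. Windows without capitals hold no such run at the annotated start, which says nothing of starts used in these mice.

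Members differed widely in level. Scaled to exonic length, Rplp1 was the highest, with 515 CPM per kb as the mean over 62 libraries, followed by Rps15 (286 CPM per kb), Rpl4 (195 CPM per kb) and Rps27rt (194 CPM per kb); the median member had 15.6 CPM per kb and Rps13 the least (1.08 CPM per kb). Not scaled, Rpl22 led with 475 CPM, a value that comes from the zQ175 series (it had 74.5 to 110 CPM in the R6/2 series). Part of the reads of such genes can be assigned to their processed copies: 265 rows with -ps symbols summed to 1593 CPM on average, against 5288 CPM for the members, with Rpl3-ps1 (194 CPM) and Rpl19-ps11 (147 CPM) the highest, so the split between a member and its copies is uncertain. The deposited counts per library ran to 49.2e6 to 101e6 in the R6/2 series, 8.66e6 to 11.2e6 in zQ175-series bulk and 4.61e6 to 12.2e6 in neuronal libraries.

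The members together took 0.450% to 1.03% of all counts in the R6/2 series. By group, the summed level was 6593 ± 1561 CPM in R6/2 with N-ZFP and 5285 ± 159 CPM in R6/2 with N-Delta (SD, n = 4 each). In NCAR it was 6584 ± 1025 CPM with N-ZFP and 8655 ± 1152 CPM with N-Delta (SD, n = 4 each). With the A viruses the groups lay close together, at 6120 ± 691 CPM in R6/2 with A-ZFP (n = 3), 5885 ± 204 CPM in R6/2 with A-Delta, 5851 ± 688 CPM in NCAR with A-ZFP and 5968 ± 661 CPM in NCAR with A-Delta (SD, n = 4 each). The NCAR mice with N-Delta thus stood above the other 7 groups, and the R6/2 mice with N-ZFP varied most among themselves, with 7802, 7766, 6307 and 4498 CPM. In zQ175-series bulk the share was lower, 4540 ± 376 CPM in zQ175 with N-ZFP, 5086 ± 410 CPM in zQ175 with N-Delta, 4147 ± 122 CPM in WT with N-ZFP (n = 3) and 4764 ± 572 CPM in WT with N-Delta, and in neuronal RNA it was lower still, from 3432 ± 266 CPM (WT with N-ZFP) to 4003 ± 408 CPM (zQ175 with N-ZFP). Without Rpl22, which takes a large share there, the neuronal sums were 3133 ± 986 CPM in zQ175 with N-ZFP, 2255 ± 55 CPM in zQ175 with N-Delta, 2364 ± 249 CPM in WT with N-ZFP and 2075 ± 103 CPM in WT with N-Delta (SD, n = 4 each), so that WT with N-Delta was the lowest. The series differ in age, kit and depth, so levels between them are side by side only.

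**Figure D1:**
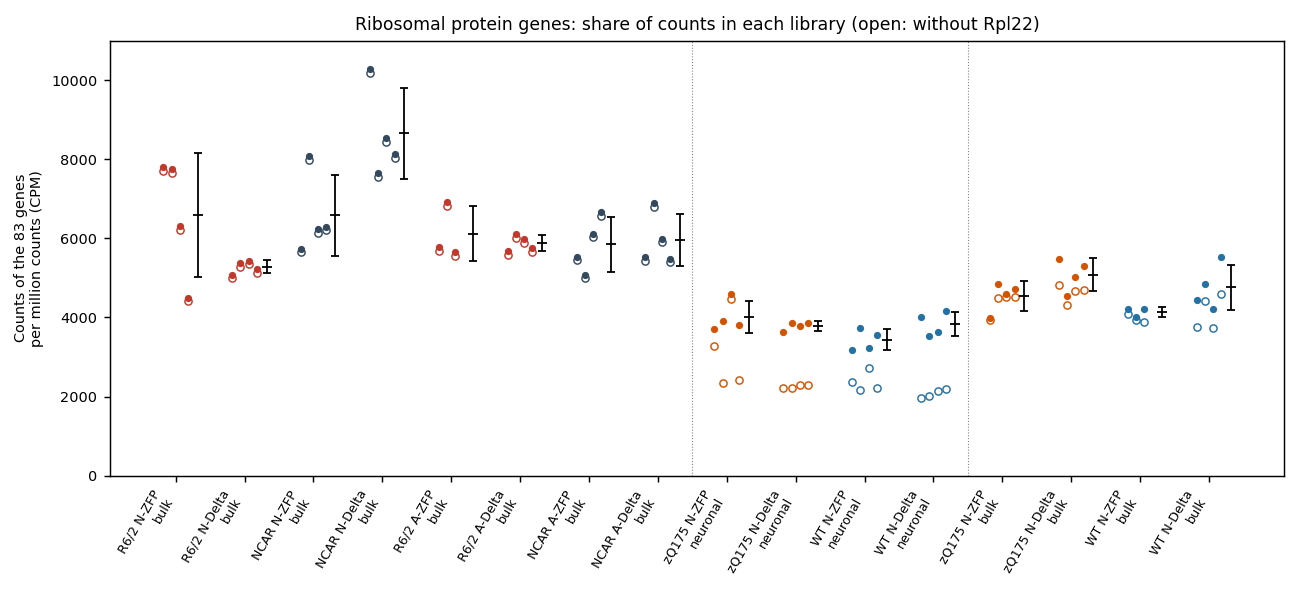
Summed level of the 83 genes in each of the 62 libraries, in CPM, as filled points; open points leave out Rpl22, and bars are the mean and SD of the filled points of a group. The 4 NCAR libraries with N-Delta reach 7644 to 10294 CPM, and open points fall well below filled ones only in the zQ175 series.

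Neuronal RNA carried far less of these mRNAs than the striatum it came from. Between neuronal and bulk libraries of WT mice with N-Delta, 75 of 83 members fell and 1 rose (edgeR quasi-likelihood test, Benjamini-Hochberg adjusted p under 0.05 over all 17702 genes tested), where 55.9% of all genes were called in either direction and 29.6% lower. The median log2 fold change was −1.03 over the members. Both subunits took part, with 43 of 49 large-subunit and 32 of 34 small-subunit genes lower. Since the libraries are scaled to their own totals, these are shares of RNA: in bulk tissue fewer cells of a type and less RNA per cell cannot be told apart. The p-values here and throughout measure the spread between libraries only, as the labels do not say that each came from its own animal.

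The stalk fell as a whole. Rplp1 (ENSMUSG00000007892, mm10 chr9:61913284-61914542, −) had 57.4, 70.3, 71.2 and 69.9 CPM in neuronal libraries of WT mice with N-Delta, against 256, 314, 263 and 308 CPM in the bulk libraries. The ranges lie far apart, and the log2 fold change was −2.0 ± 0.13 (SE, edgeR adjusted p 5.35e-13). Rplp0 had −0.82 ± 0.08 and Rplp2 −0.67 ± 0.12, both called. Of the small subunit, Rpsa, also known as a receptor for laminin, had 49.8, 52.9, 57.1 and 66.7 CPM in neuronal RNA and 131, 143, 126 and 138 CPM in bulk RNA (log2 fold change −1.17 ± 0.09), again without overlap. Rps6, the substrate of the S6 kinases, had 3.00, 3.10, 4.53 and 3.48 CPM in neuronal RNA and 5.80, 8.11, 6.86 and 7.12 CPM in bulk RNA (−0.90 ± 0.20). The lowest folds belonged to Rpl12 (−2.17 ± 0.35), which sits at the base of the stalk, Rpl23a (−2.03 ± 0.42), Rplp1, Rps27rt (−1.96 ± 0.11) and Rps13 (−1.91 ± 0.40).

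Few members escaped. Rpl22 rose (1.57 ± 0.56, SE, edgeR adjusted p 0.019). Not called were Rps19bp1 (0.29 ± 0.13), Rpl7l1 (−0.02), Rpl19 (−0.08), Rpl15 (−0.08), Rpl36al (−0.09) and Rps27l (−0.34) among 7 members in all. Rps19bp1, for one, had 12.1, 11.1, 11.5 and 9.84 CPM in neuronal RNA and 9.90, 9.45, 9.71 and 9.64 CPM in bulk RNA, with the lowest neuronal value inside the bulk range. The 30 members with a TOP motif in their promoter had a median of −0.98 and the 33 without one −0.97 in this comparison. Between R6/2 and NCAR mice with N-Delta the medians were −0.87 with and −0.70 without it.

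Other gene lists were counted beside the 26.3% of all genes that were higher and the 29.6% that were lower in this comparison. Of 34 factors of ribosome biogenesis 24 rose and 0 fell, of 35 initiation factors 16 rose and 4 fell, and of 78 mitochondrial ribosomal proteins 28 rose and 4 fell. Among 14 other TOP mRNAs and associated genes 1 rose and 9 fell. Markers of other cells were lower in neuronal RNA: 9 of 10 astrocyte, 10 of 10 oligodendrocyte, 10 of 10 microglia (median −5.38), 10 of 10 vascular and 5 of 5 blood markers fell, while 11 of 12 markers of striatal projection neurons rose. Microglia markers, for one, summed to 19.5 to 23.4 CPM in neuronal libraries of WT mice with N-Delta, against 431 to 575 CPM in the bulk libraries. The part of these in the members' difference was not tested.

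Rpl22 (ENSMUSG00000028936, chr4:152325742-152334071, +), a protein of the large subunit that is dispensable in many cells, followed its own course. In neuronal RNA it had 421, 1560, 131 and 1370 CPM in zQ175 with N-ZFP, 1417, 1664, 1474 and 1566 CPM in zQ175 with N-Delta, 826, 1584, 520 and 1342 CPM in WT with N-ZFP, and 2040, 1527, 1485 and 1991 CPM in WT with N-Delta. In bulk RNA of the same series it had 70.6, 351, 78.2 and 201 CPM in zQ175 with N-ZFP, 674, 225, 372 and 607 CPM in zQ175 with N-Delta, 114, 77.0 and 350 CPM in WT with N-ZFP, and 676, 440, 476 and 924 CPM in WT with N-Delta. Its 31 values in the R6/2 series ran from 74.5 to 110 CPM only, so in the zQ175 series Rpl22 alone made up 2.84% to 51.0% of the family's counts in neuronal libraries and 1.70% to 16.7% in bulk ones. The N-ZFP libraries numbered 1 and 3 were the lowest of their group in neuronal RNA of both genotypes, and the same numbers were lowest in bulk RNA. As background, a tagged Rpl22 is the handle of the RiboTag method for isolating RNA on ribosomes of chosen cells; whether a tag was used here is not given, and its part was not tested. With N-ZFP against N-Delta, Rpl22 was not called (bulk log2 fold change −1.42 ± 0.47 in zQ175 and −1.77 ± 0.53 in WT, neuronal −0.81 ± 0.51 in zQ175 and −0.75 ± 0.51 in WT).

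**Figure D2:**
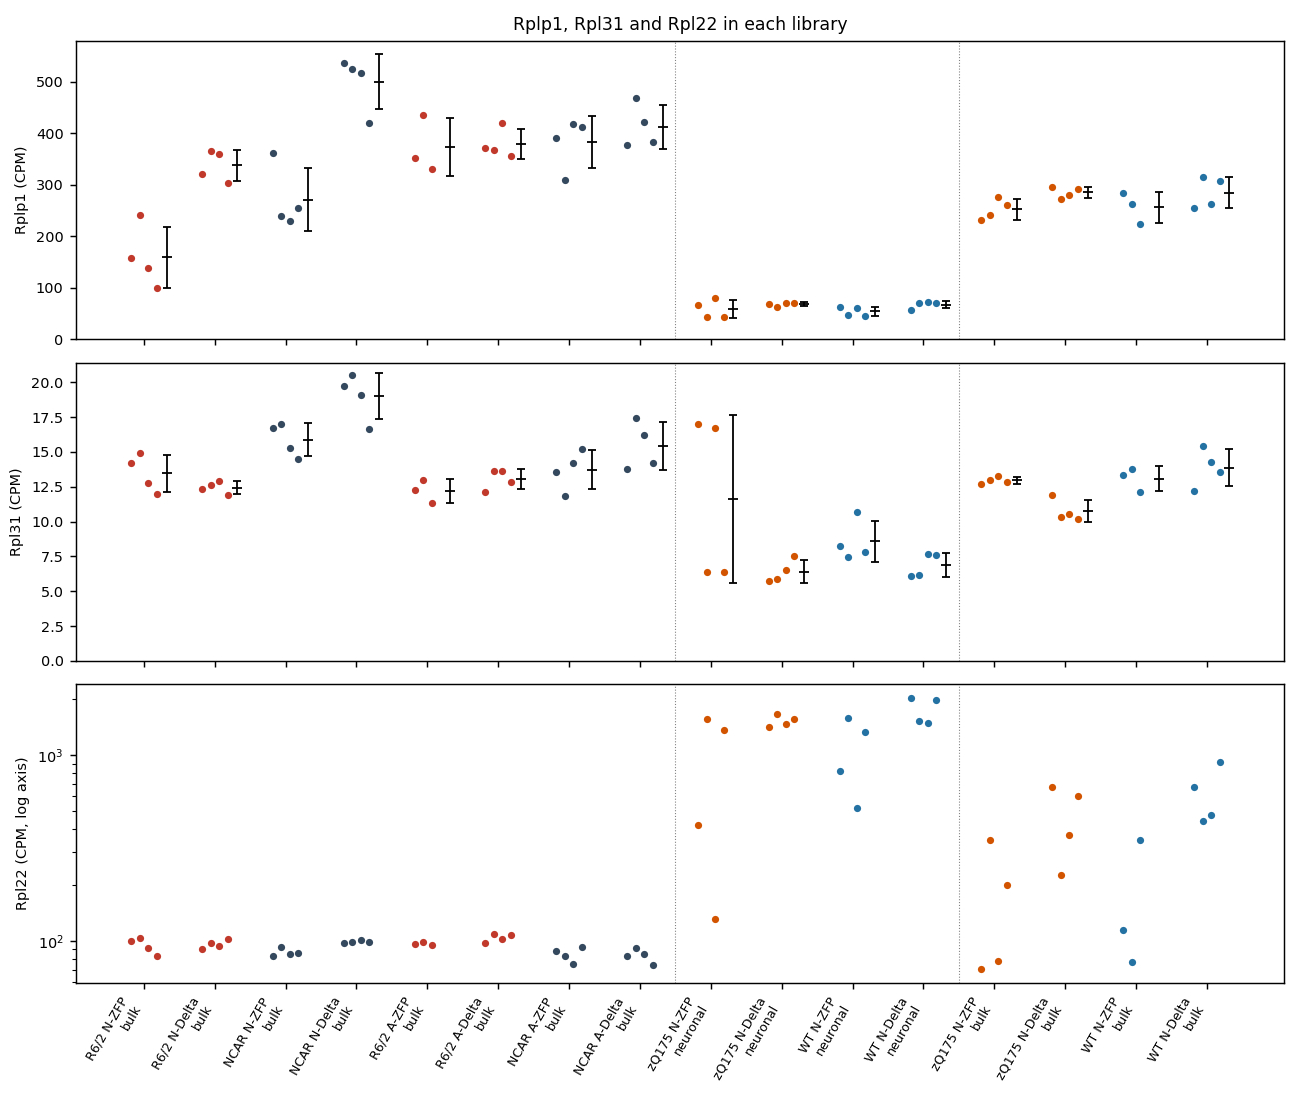
Levels of Rplp1, Rpl31 and Rpl22 in CPM in every library, by group. Bars for mean and SD are drawn for Rplp1 and Rpl31 only, and the axis of Rpl22 is logarithmic. Rplp1 is lowest in neuronal libraries (42.7 to 79.4 CPM) and, in the R6/2 series, in R6/2 mice with N-ZFP (99.8 to 241 CPM); Rpl22 reaches 2040 CPM in neuronal and 924 CPM in bulk libraries.

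R6/2 mice were set against NCAR mice under each control virus, to ask what the disease genotype changes. Between R6/2 and NCAR mice with N-Delta, 71 of 83 members fell and 0 rose, against 55.5% of all 21752 genes called in either direction and 28.4% lower. The median was −0.74, and 81 members had a negative fold change. All 3 stalk genes, 41 of 49 large-subunit genes and 30 of 34 small-subunit genes were among the 71. Between R6/2 and NCAR mice with A-Delta, 2 rose and 5 fell (median −0.10), where 28.9% of all genes were called (13.7% higher and 15.3% lower).

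With N-Delta, Rps25, a small-subunit protein needed for some internal initiation, had 40.0, 44.3, 42.0 and 45.2 CPM in R6/2 and 124, 78.1, 93.0 and 93.2 CPM in NCAR mice. The groups lie apart, with a log2 fold change of −1.23 ± 0.18 (SE, edgeR adjusted p under 0.05). Rpl41, the shortest of the ribosomal proteins, had 162, 177, 187 and 164 CPM in R6/2 and 438, 282, 372 and 347 CPM in NCAR mice (−1.11 ± 0.18). Rplp0 had 152, 169, 166 and 147 CPM in R6/2 and 355, 248, 277 and 251 CPM in NCAR mice (−0.88 ± 0.15). In each of these genes NCAR library 1 was the highest and no R6/2 value reached the NCAR range. The lowest folds were those of Rps18 (−1.91 ± 0.76), Rps7 (−1.35 ± 0.25), Rps2 (−1.33 ± 0.97, not called), Rpsa (−1.25 ± 0.28) and Rps14 (−1.23 ± 0.20). At the other end, Rpl26 (0.52 ± 1.09), Rpl4 (0.06), Rpl22 (−0.09), Rpl28 (−0.13) and Rpl23 (−0.22) were not called. Rps18, Rps2 and Rpl26 took separate levels within groups of these mice, so their folds turn on single libraries. Rpl4, the second highest member in CPM, had 452, 479, 476 and 468 CPM in R6/2 and 407, 458, 431 and 445 CPM in NCAR mice.

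**Figure D3:**
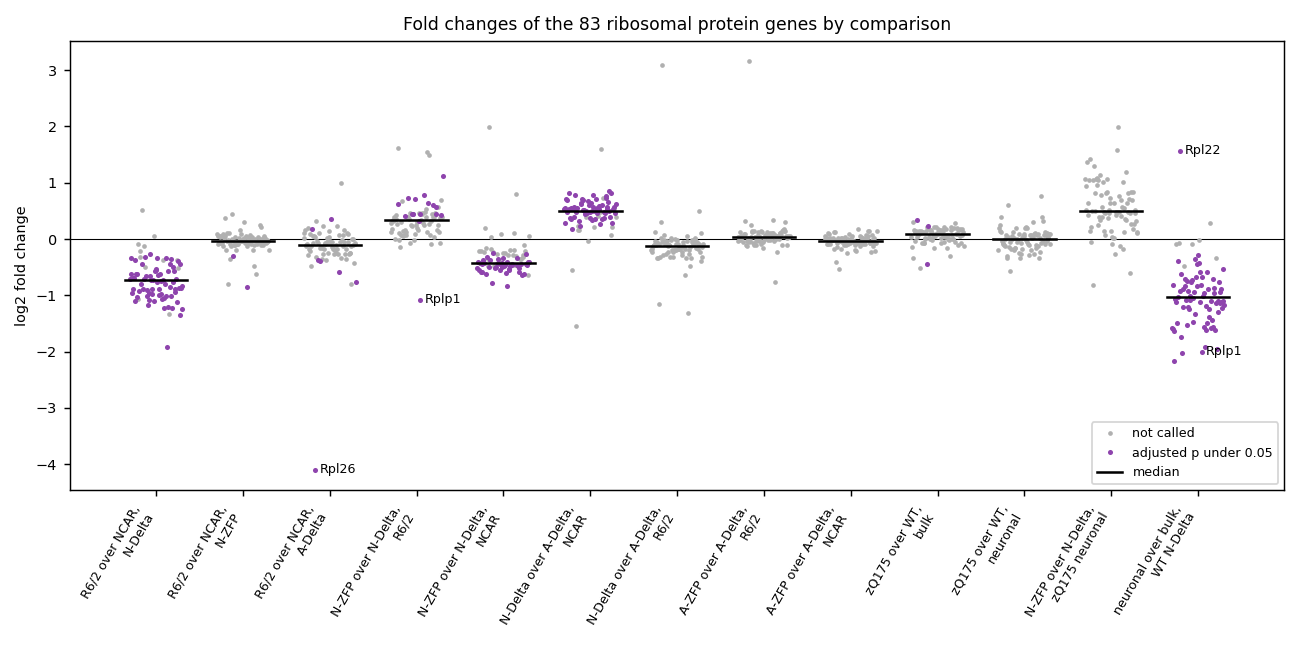
Log2 fold change of each of the 83 genes in 13 comparisons; purple points passed the adjusted p of 0.05 and black bars are medians. With N-Delta, 71 genes lie below 0 and are called between R6/2 and NCAR mice, and 75 between neuronal and bulk RNA of WT mice, whereas no gene is called for A-ZFP against A-Delta.

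The same 4 NCAR libraries with N-Delta differed from NCAR libraries with A-Delta: 67 members were higher and 0 lower (median 0.50), against 37% of all genes called and 18% higher. In R6/2 mice the same pair of control viruses gave 0 calls by edgeR (9 members at an unadjusted p under 0.05) and 0 by DESeq2, with a median of −0.12 and 0% of all genes called. Rps25, for example, had 124, 78.1, 93.0 and 93.2 CPM in NCAR with N-Delta and 50.4, 68.7, 53.2 and 46.6 CPM in NCAR with A-Delta (0.76 ± 0.18, edgeR adjusted p 0.0028), the ranges again apart. Among the called members Rps27l, a paralog of Rps27 that p53 induces, had the highest fold (0.85 ± 0.18), followed by Rpl17, Rps3 (both 0.81 ± 0.20), Rpl24 (0.79 ± 0.18) and Rpl9 (0.77 ± 0.18). Rps18 lay above them (1.60 ± 0.75) and was not called, and Rplp1 (0.21 ± 0.17), Rpl4 (−0.04) and Rpl26 (−1.54) were not called either. Without NCAR N-Delta library 1, the highest of the 31 libraries in the family, 36 members were called higher. A and N viruses were given to separate sets of mice, so virus and set cannot be told apart, and comparisons that use the NCAR N-Delta libraries share them.

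A property of the libraries moved with the family. Each library was given a length index: over protein-coding genes outside the family, the correlation of log10 exonic length with how far the gene's log2 CPM stood from its mean over libraries. It was 0.209 ± 0.053 in R6/2 and −0.310 ± 0.087 in NCAR mice with N-Delta (SD, n = 4 each; exact two-sided permutation test, p 0.02857, the smallest that 4 against 4 allow; 0.1524 after adjustment over 16 comparisons). A positive index means that long genes were high and short ones low. Over the 31 libraries of the R6/2 series, the mean log2 CPM of the members followed the index with a Pearson r of −0.951 and a Spearman rho of −0.928, and within groups with −0.923 and −0.862; without the 2 libraries farthest from the median index r was −0.936. This is a description of libraries from 1 series and 1 RNA kit, whose depth varied. In bulk libraries of the zQ175 series r was −0.917 (15 libraries; −0.881 without the 2 farthest), and in neuronal ones 0.883 (16 libraries, rho 0.635; r 0.727 without the 2 farthest). With the index as a covariate, 8 of 83 members were lower and 0 higher between R6/2 and NCAR mice with N-Delta (median −0.16), and with offsets for length and GC content 49 were lower and 6 higher (median −0.34). Between N-Delta and A-Delta in NCAR mice the index was −0.310 ± 0.087 with N-Delta and 0.054 ± 0.148 with A-Delta (SD, n = 4 each; exact two-sided permutation test, p 0.02857, adjusted 0.1524). There the covariate left 0 members called (median 0.071), and the offsets left 38 higher and 2 lower (median 0.26).

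**Figure D4:**
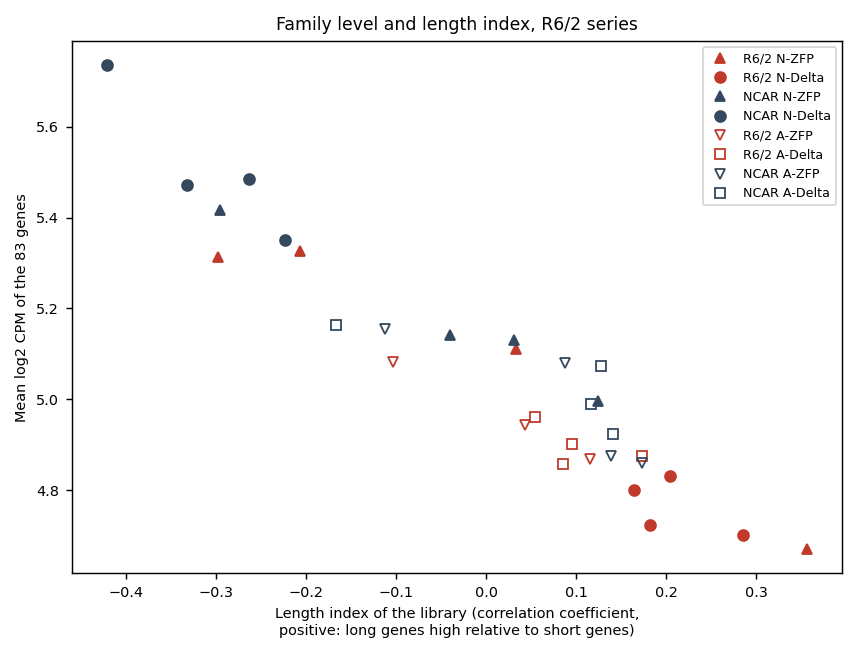
Mean log2 CPM of the 83 genes against the length index of the same library, for the 31 libraries from R6/2 and NCAR mice, by group. The points fall along a line (Pearson r −0.951), with R6/2 libraries with N-Delta at the lower right and NCAR libraries with N-Delta at the upper left.

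Other gene lists moved as well. Between R6/2 and NCAR mice with N-Delta, 67 of 78 mitochondrial ribosomal proteins fell and 3 rose (median −0.53), and 86 of 96 nuclear genes of oxidative phosphorylation fell and 1 rose (median −0.72). Of 34 biogenesis factors 18 rose and 6 fell, of 20 genes of the mTOR pathway and TOP control 11 rose and 3 fell, and of 35 initiation factors 10 rose and 15 fell. Of the 12 markers of projection neurons 8 fell, summing to 2435 to 2949 CPM in R6/2 and 3737 to 5982 CPM in NCAR mice, and 6 of 8 hypothalamic and thalamic markers fell (11.7 to 14.7 CPM in R6/2, 22.2 to 80.4 CPM in NCAR mice). Of other cells, 5 of 10 oligodendrocyte markers fell (sums of 6640 to 8045 CPM in R6/2 and 9437 to 12741 CPM in NCAR mice), as did 5 of 10 astrocyte markers (4645 to 5481 CPM in R6/2 and 5787 to 6955 CPM in NCAR mice). Of 10 microglia markers 5 fell and 1 rose (416 to 540 CPM in R6/2 and 451 to 604 CPM in NCAR mice), and 3 of 5 blood markers fell (43.8 to 59.9 CPM in R6/2 and 79.4 to 154 CPM in NCAR mice). Of 10 vascular markers 5 rose and 1 fell (464 to 523 CPM in R6/2 and 378 to 450 CPM in NCAR mice). Their part in the members' difference was not tested.

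With A-Delta, R6/2 differed from NCAR mice in 7 members. Rpl31 (ENSMUSG00000073702, chr1:39367842-39371911, +), a large-subunit protein at the exit of the peptide tunnel, had 12.1, 13.6, 13.6 and 12.8 CPM in R6/2 and 13.8, 17.4, 16.2 and 14.2 CPM in NCAR mice. All R6/2 values lie below the NCAR ones by a small margin, with a log2 fold change of −0.39 ± 0.08 (SE, edgeR adjusted p 6.7e-04). Rpsa had 63.6, 78.8, 76.4 and 167 CPM in R6/2 and 135, 173, 140 and 146 CPM in NCAR mice (−0.76 ± 0.28, edgeR adjusted p 0.039), where 1 R6/2 library stands within the NCAR range. Rps16 (−0.58 ± 0.21), Rpl29 (−0.37 ± 0.11) and Rpl26 (−4.10 ± 1.24) were also lower, and Rpl7l1 (0.35 ± 0.11) and Rpl22 (0.18 ± 0.06) higher. Of 16 alternative settings, the call held in 16 for Rpl26, 15 for Rpl7l1 and 14 for Rpl29. It held in only 10 for Rps16, 9 for Rpsa and 8 for Rpl22.

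Rpl31 was lower with each N virus too. With N-Delta it had 12.3, 12.6, 12.9 and 11.9 CPM in R6/2 and 19.7, 20.5, 19.1 and 16.7 CPM in NCAR mice (−0.66 ± 0.08, edgeR adjusted p 4.86e-07). With N-ZFP it had 14.2, 14.9, 12.8 and 12.0 CPM in R6/2 and 16.7, 17.0, 15.3 and 14.5 CPM in NCAR mice (−0.31 ± 0.08, edgeR adjusted p 0.019). In the other model, Rpl31 had 11.9, 10.3, 10.5 and 10.2 CPM in zQ175 and 12.2, 15.5, 14.2 and 13.6 CPM in WT bulk striatum with N-Delta (−0.45 ± 0.09, edgeR adjusted p 0.0022). No zQ175 value reached the WT range. The A-Delta and the zQ175 difference each passed the threshold in all 16 alternative settings, and the index and offset settings left them at −0.37 and −0.33 in R6/2, and at −0.47 and −0.53 in zQ175. The N-Delta difference in the R6/2 series was called in 15 of 16 and not with length and GC offsets (−0.16), and the N-ZFP one in 13 of 16, not on the compared groups alone (−0.31), without NCAR N-ZFP library 1 (−0.27) or without R6/2 N-ZFP library 3 (−0.28). Markers of striatal projection neurons were lower in the same mice, with sums of 2139 ± 398 CPM in R6/2 and 5545 ± 942 CPM in NCAR mice with A-Delta, and 3960 ± 117 CPM in zQ175 and 7468 ± 601 CPM in WT bulk striatum with N-Delta (SD, n = 4 each). Their part in the Rpl31 difference was not tested. In neuronal RNA it had −0.20 ± 0.28 between zQ175 and WT mice, not called; whether the neuronal and the bulk difference differ was tested (0.28 ± 0.28, edgeR adjusted p 1.00) and not called.

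In bulk striatum of zQ175 mice, 2 further members differed from WT, where 16% of all 17114 genes were called, 6.44% higher and 9.57% lower. Rpl18 had 32.8, 29.4, 27.0 and 26.5 CPM in zQ175 and 18.4, 23.0, 20.9 and 24.6 CPM in WT mice (0.33 ± 0.09, edgeR adjusted p 0.020). Rpl32 had 112, 99.0, 106 and 110 CPM in zQ175 and 74.9, 93.8, 78.7 and 98.0 CPM in WT mice (0.23 ± 0.07, edgeR adjusted p 0.036). In both, all zQ175 values lay above the WT ones. The median of the members was 0.08. Both calls were lost without WT library 1 or 3 or zQ175 library 1, where Rpl31 was the 1 call left; that of Rpl32 also without zQ175 library 3 or 4 and on the compared groups alone. Without WT library 2 there were 5 calls and without WT library 4 there were 9. In neuronal RNA edgeR called 0 members between zQ175 and WT mice with N-Delta (2 at an unadjusted p under 0.05; DESeq2 called 1), with a median of 0.00 and 9.36% of all genes called (3.33% higher and 6.03% lower). The neuronal effect minus the bulk effect gave 0 calls by edgeR (3 at an unadjusted p under 0.05) and 0 by DESeq2, with a median of −0.05 and 0% of all genes called.

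Between N-ZFP and N-Delta, the repressor and its control among the N viruses, the family differed in opposite directions in the genotypes of the R6/2 series. The NCAR libraries with N-Delta, the group with the highest family level, enter the NCAR comparison and the difference between genotypes. With the length index as a covariate 0 members were called in either, so an effect of the repressor on the family cannot be told apart here. In R6/2 mice 15 members rose and 1 fell (median 0.34), against 13.1% of all genes called, 8.2% higher and 4.86% lower. In NCAR mice 0 rose and 47 fell (median −0.42), against 22% called and 10.2% lower. The difference between genotypes was itself called for 62 members, all higher in R6/2 (median 0.75), where 32.3% of all genes were called and 17% higher. Rplp1, lower in both, was not among them (−0.24 ± 0.24, edgeR adjusted p 0.45).

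In R6/2 mice Rpsa had 219, 130, 269 and 150 CPM with N-ZFP and 70.1, 134, 82.1 and 70.8 CPM with N-Delta, a log2 fold change of 1.12 ± 0.28 (SE, edgeR adjusted p 0.0091) in which 1 value of each group crosses the other. Rpl41 had 327, 356, 281 and 158 CPM with N-ZFP and 162, 177, 187 and 164 CPM with N-Delta (0.70 ± 0.18, edgeR adjusted p 0.011). Rps25 had 80.8, 83.4, 56.7 and 39.1 CPM with N-ZFP and 40.0, 44.3, 42.0 and 45.2 CPM with N-Delta (0.60 ± 0.18, edgeR adjusted p 0.024). In Rpl41 and Rps25 library 4 with N-ZFP lay below all 4 N-Delta libraries, while the other 3 lay above them. The remaining higher calls included Rps14 (0.78 ± 0.20), Rpl35 (0.72), Rplp0 (0.44 ± 0.15), Rpl39 (0.44 ± 0.15), Rpl8, Rpl29, Rps28, Rpl37a, Rps27rt, Rpl19 and Rps19. Rpl21 (1.62 ± 0.86), Rps18 (1.54 ± 0.76) and Rps2 (1.5 ± 0.97) had the highest folds and were not called.

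In NCAR mice Rps3, a small-subunit protein that also takes part in DNA repair, had 359, 626, 399 and 448 CPM with N-ZFP and 874, 593, 764 and 633 CPM with N-Delta (−0.62 ± 0.20, edgeR adjusted p 0.033). Library 2 with N-ZFP lay within the N-Delta range. Rps27l had 10.7, 19.3, 13.3 and 14.0 CPM with N-ZFP and 30.3, 17.0, 21.1 and 22.8 CPM with N-Delta (−0.64 ± 0.17, edgeR adjusted p 0.022), with the same library crossing. Rpl3, which lies near the catalytic centre, had −0.78 ± 0.26, and Rpl26 (2.00 ± 1.12), Rps2 (0.80) and Rpl4 (0.09) were higher and not called.

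These counts rested on few libraries. The share of all genes called in each refit is not given here. The counts that follow thus show how the calls depend on libraries and settings, and not how the family stands against other genes. Without R6/2 N-ZFP library 2, 2 members were called in R6/2, and without library 4, 54; without R6/2 N-ZFP library 1 there were 6, and without any 1 of N-Delta libraries 1, 2 and 4 there were 8 or 9. In NCAR mice the 47 calls became 0 or 1 without N-Delta library 1 or 4 or N-ZFP library 1, 3 or 4, and 31 without N-Delta library 3. The R6/2 N-ZFP libraries had length indices of −0.207, −0.298, 0.033 and 0.357, in the inverse order of their family levels but for a near tie, and the groups averaged −0.029 ± 0.293 with N-ZFP and 0.209 ± 0.053 with N-Delta. In NCAR mice the index averaged −0.045 ± 0.180 with N-ZFP and −0.310 ± 0.087 with N-Delta. With the index as a covariate 3 members were higher and 3 lower in R6/2, 0 were called in NCAR mice, and 0 were called for the difference between genotypes. Fitted on the compared groups alone, there were 2 higher and 1 lower in R6/2, and 1 higher in NCAR mice.

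Oxidative phosphorylation genes had 29 of 96 higher and 0 lower with N-ZFP in R6/2, and 1 higher and 58 lower in NCAR mice, while mitochondrial ribosomal proteins had 10 of 78 higher and 0 lower in R6/2, and 1 higher and 41 lower in NCAR mice. Of 34 biogenesis factors, 3 rose and 2 fell in R6/2, and 6 rose and 1 fell in NCAR mice. Markers of projection neurons were higher with N-ZFP in both genotypes, 6 of 12 called in R6/2 (median 0.57) and 4 of 12 in NCAR mice (median 0.46). Their part was not tested.

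In R6/2 mice Rplp1 went against its family. With N-ZFP it had 158, 241, 138 and 99.8 CPM in R6/2 mice, against 321, 366, 361 and 304 CPM with N-Delta, so that all N-ZFP values lay below all N-Delta ones. The log2 fold change was −1.08 ± 0.17 (SE, edgeR adjusted p 1.0e-04), and it was the 1 member that fell. In NCAR mice Rplp1 had 361, 239, 230 and 254 CPM with N-ZFP and 537, 526, 518 and 421 CPM with N-Delta, again without overlap (−0.84 ± 0.17, edgeR adjusted p 0.013). Its partners in the stalk did not do the same: in R6/2 mice Rplp0 rose and Rplp2 had 44.7, 44.6, 32.6 and 24.9 CPM with N-ZFP and 27.1, 32.1, 28.9 and 28.6 CPM with N-Delta, not called. The R6/2 call of Rplp1 held in 16 of 16 alternatives, with log2 fold changes of −1.35 to −0.93, and the NCAR call in 12 of 16 (−1.03 to −0.59); it was lost in NCAR with the index as covariate, on the compared groups alone, and without N-Delta library 1 or N-ZFP library 3. R6/2 mice with N-ZFP also lay below NCAR mice with N-ZFP in Rplp1 (−0.85 ± 0.17, edgeR adjusted p 0.0015), in a comparison in which 2 members, Rplp1 and Rpl31, were called lower and 7.34% of all genes were called (3.09% higher and 4.25% lower).

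With A-ZFP, Rplp1 was not called in either genotype. It had 353, 437 and 331 CPM in R6/2 with A-ZFP and 372, 368, 421 and 355 CPM in R6/2 with A-Delta (−0.03 ± 0.18), and 391.7, 309, 419 and 412 CPM in NCAR with A-ZFP and 377, 468, 422 and 384 CPM in NCAR with A-Delta (−0.12 ± 0.17). The values overlap in both genotypes.

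In the zQ175 series Rplp1 was not called with N-ZFP in the main comparisons. In bulk striatum it had 231, 240, 277 and 260 CPM in zQ175 with N-ZFP and 296, 273, 280 and 293 CPM in zQ175 with N-Delta (−0.18 ± 0.07), and 284, 262 and 224 CPM in WT with N-ZFP and 256, 314, 263 and 308 CPM in WT with N-Delta (−0.12 ± 0.08). In neuronal RNA it had 66.8, 42.7, 79.4 and 43.7 CPM in zQ175 with N-ZFP and 69.2, 62.5, 70.3 and 70.5 CPM in zQ175 with N-Delta (−0.26 ± 0.17, edgeR adjusted p 0.28). In WT neuronal RNA it had 63.1, 47.0, 60.4 and 45.4 CPM with N-ZFP and 57.4, 70.3, 71.2 and 69.9 CPM with N-Delta (−0.34 ± 0.16, edgeR adjusted p 0.84). In both genotypes libraries 2 and 4 with N-ZFP lay below all 4 N-Delta libraries and libraries 1 and 3 did not. Libraries 1 and 3 also held more mitochondrial RNA (2.51% and 4.31% in zQ175, 0.801% and 1.05% in WT) than libraries 2 and 4 (0.291% and 0.416% in zQ175, 0.216% and 0.229% in WT). With libraries 1 and 3 of N-ZFP left out, the log2 fold change was −0.66 in zQ175 and −0.57 in WT neuronal RNA; since libraries 2 and 4, the low ones, are what this choice keeps, these 2 values are a description without a test. With all libraries kept and the index added as a covariate, Rplp1 was the 1 member called lower, with −0.55 (edgeR adjusted p 0.033) in zQ175 and −0.58 (edgeR adjusted p 0.014) in WT neuronal RNA. Under the other settings tried with at least 3 N-ZFP libraries it was not called in neuronal RNA.

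The rows most like Rplp1 were taken by the correlation of log2 CPM over the 31 libraries of the R6/2 series, group differences included. The 20 rows with the highest correlation were led by Gm10073 (r 0.982) and the pseudogene Gm11942 (r 0.964), and 2 of the 20 lie on chromosome 9 with Rplp1. Whether reads were shared between these rows and Rplp1 was not tested. All 20 were called lower with N-ZFP in both genotypes, whereas 55 of all 21752 rows (0.253%) were, and since the same libraries chose the 20, their share is a description. Rsl24d1, a factor of ribosome biogenesis, had −1.04 ± 0.12 in R6/2 (edgeR adjusted p 2.2e-06) and −0.79 ± 0.12 in NCAR mice, Fkbp3, a prolyl isomerase, −1.15 ± 0.18 and −1.08 ± 0.18, and Mzt2 −1.56 ± 0.16 and −1.15 ± 0.16.

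The huntingtin repeat is a run of CAG. Runs of CAG on either strand (3 or more CAG or CTG in a row) were counted in the promoter windows, a search chosen after these values were seen. Such a run stood in 5 of the 11 like rows that have a window (45.5%) and in 1 of 63 members (1.59%), Rpl35a. These were counted by gene, over all its windows. Counted singly, 598 of all 32851 windows (1.82%) held one. The units differ and the same libraries chose the like rows, so the shares are a description and not a test. The run had 17 units in Rsl24d1 and 3 in Fkbp3. In Tceal6 (4 units), Impdh1 (3 units) and Ndrg3 (3 units) it reached the last base of the window, so these runs have at least that length. In transcripts, 6 or more in a row stood in 5 of the 20 (25%), in 305 of 21667 rows (1.41%) and in 0 of 83 members; the longest run in Rplp1 itself was 2, and its promoter was not analysed here. The 3 windows with bases on both sides of the run are shown, sense strand, 5′ to 3′, RefSeq GRCm38.p6, with the run in capitals.
Rsl24d1: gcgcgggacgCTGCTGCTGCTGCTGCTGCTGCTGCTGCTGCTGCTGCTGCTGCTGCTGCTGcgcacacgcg
Fkbp3: agtgcagcggCAGCAGCAGgggaagatgg
Rpl35a: aggggggttcCTGCTGCTGagctttgggg
They lie at chr9:73113283-73113353 (+, Rsl24d1), chr12:65073919-65073947 (−, Fkbp3) and chr16:33056514-33056542 (+, Rpl35a). The run of Rsl24d1 has 17 units and ends 126 bases before the annotated start, that of Fkbp3 covers bases 1 to 9 from the start, and that of Rpl35a bases 10 to 18. A run is a match of letters only, and binding of the zinc finger protein was not measured here.

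A-ZFP against A-Delta, the repressor with the viruses labelled for astrocytes, gave no call among the members. In R6/2 mice edgeR called 0 members (1 at an unadjusted p under 0.05) and DESeq2 0, with a median of 0.04 and 0.0322% of all genes called. In NCAR mice edgeR called 0 (1 at an unadjusted p under 0.05) and DESeq2 0, with a median of −0.04 and 0.0184% of all genes called. The difference between genotypes gave 0 calls by both tools (1 member at an unadjusted p under 0.05; 0% of all genes called).

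In bulk striatum of the zQ175 series N-ZFP also gave no calls in the main comparisons. In zQ175 mice edgeR called 0 members (11 at an unadjusted p under 0.05, median −0.06) and DESeq2 0, with 0% of all genes called. In WT mice edgeR called 0 (9 at an unadjusted p under 0.05, median −0.02) and DESeq2 1, with 0% of all genes called. The difference between genotypes gave 0 calls by both tools (2 at an unadjusted p under 0.05; 0% of all genes called; median −0.06).

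In neuronal RNA of zQ175 mice, N-ZFP gave 0 calls among the members by edgeR (median 0.50), where 0.329% of all genes were called. At an unadjusted p under 0.05 by edgeR stood 48 members and 4811 of all 15815 genes. DESeq2 called 27 members, all higher, and its share over all genes is not given here. Rps13 (1.99 ± 0.56), Rps12 (1.59), Rpl17 (1.42), Rpl12 (1.37) and Rpl22l1 (1.30 ± 0.33, edgeR adjusted p 0.080) had the highest folds. Rpl12 had 6.44, 3.38, 11.7 and 1.36 CPM with N-ZFP and 0.791, 2.10, 2.63 and 2.48 CPM with N-Delta. Rps13 had 5.06, 1.49, 6.29 and 0.872 CPM with N-ZFP and 1.58, 0.600, 0.703 and 0.578 CPM with N-Delta. In both, libraries 1 and 3 are the highest; library 4 lies inside the N-Delta range, and library 2 above it for Rpl12 and inside it for Rps13. Over all members the mean log2 CPM was 4.34 and 4.68 in libraries 1 and 3, and 3.75 and 3.77 in libraries 2 and 4. Libraries 1 and 3 also had more microglia marker RNA (66.5 and 105 CPM against 27.2 and 29.1 CPM), with 9 of 9 measured microglia markers positive between N-ZFP and N-Delta (median 1.71) and none of them called, and 2 of 2 blood markers (median 2.10). Without libraries 1 and 3 the median of the members was 0.10, and without library 2 or 4 alone 46 or 42 members were called. The share of all genes called in these refits is not given here. In WT neuronal RNA edgeR called 0 members (3 at an unadjusted p under 0.05) and DESeq2 0, with a median of 0.16 and 0.126% of all genes called. The difference between genotypes gave 0 calls by both tools (5 at an unadjusted p under 0.05; 0% of all genes called; median 0.34, and 0.04 without libraries 1 and 3).

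Some members of the R6/2 series took separate levels within single groups. Between the highest and the lowest library of at least 1 group, 5 of 83 members differed by over 5-fold (Rpl21, Rpl26, Rps18, Rps2 and Rps3a1; 6.02%), against 77 of 12506 other coding genes that averaged 2 CPM or more (0.616%). In zQ175-series bulk, 0 of 82 members did, against 27 of 12550 other coding genes (0.215%), a share too low to set the members apart. In zQ175-series neuronal libraries 4 of 73 did (Rpl10, Rpl12, Rpl22 and Rps12, 5.48%), against 303 of 12057 other coding genes (2.51%). The members named were chosen by this spread, so the shares are a description. Rpl26, a large-subunit protein that also binds p53 mRNA, had 4.00, 5.28, 4.00 and 4.23 CPM in R6/2 and 49.6, 4.26, 114 and 100 CPM in NCAR mice with A-Delta (log2 fold change −4.10, called), where 1 NCAR library stands at the R6/2 level. With N-ZFP it had 70.2, 4.70, 112 and 41.8 CPM in R6/2 and 3.80, 152, 114 and 115 CPM in NCAR mice. Over the 31 libraries 14 lay at or below 7.84 CPM and 17 at or above 41.8 CPM, with none between.

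Rps18 had 62.8, 37.6, 27.1 and 2.55 CPM in R6/2 with N-ZFP and 2.97, 3.59, 19.9 and 17.6 CPM in R6/2 with N-Delta, and 8 of 31 libraries stood at or below 4.46 CPM and the rest at or above 17.6 CPM. The gaps lay between 4.08 and 46.2 CPM for Rps2 (7 libraries below), between 10.3 and 45.8 CPM for Rpl21 (10 below), and between 3.07 and 58.4 CPM for Rps3a1 (1 below). Rows were ranked by the size of their correlation with a member over these libraries, whether positive or negative. Of the top 20 rows, those on the member's own chromosome numbered 15 for Rpl26 (chromosome 11, which holds 7.73% of the 16644 rows). They numbered 17 for Rps18 and 15 for Rps2 (chromosome 17, 4.57%), and 10 for Rps3a1 (chromosome 3, 5.34%). For Rpsa (chromosome 9, 5.51%) there were 12, and for Rpl21 (chromosome 5, 6.61%) 6. For Rpl3 (chromosome 15, 3.68%) there were 5, for Rpl31 1 and for Rplp1 2. Rpsa, Rpl3, Rpl31 and Rplp1 are not among the 5 members with such gaps. The top row was a processed pseudogene on another chromosome for Rpl26 (Gm11826, r 0.982), Rpl21 (Gm9104, r 0.993) and Rps3a1 (Gm7600, r 0.929). The same held for Rpsa (Rpsa-ps2, r 0.934) and Rpl3 (Rpl3-ps2, r 0.957). It was a coding gene on the same chromosome for Rps2 (Atp6v0c, r 0.977) and Rps18 (Zfp811, r 0.862). Gm15772, a processed pseudogene with 60.5 to 412 CPM, ran inversely to Rpl26 (r −0.843). Whether reads were shared between members and such pseudogenes was not tested. Genotype at these places was not measured here, and its part was not tested.

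**Figure D5:**
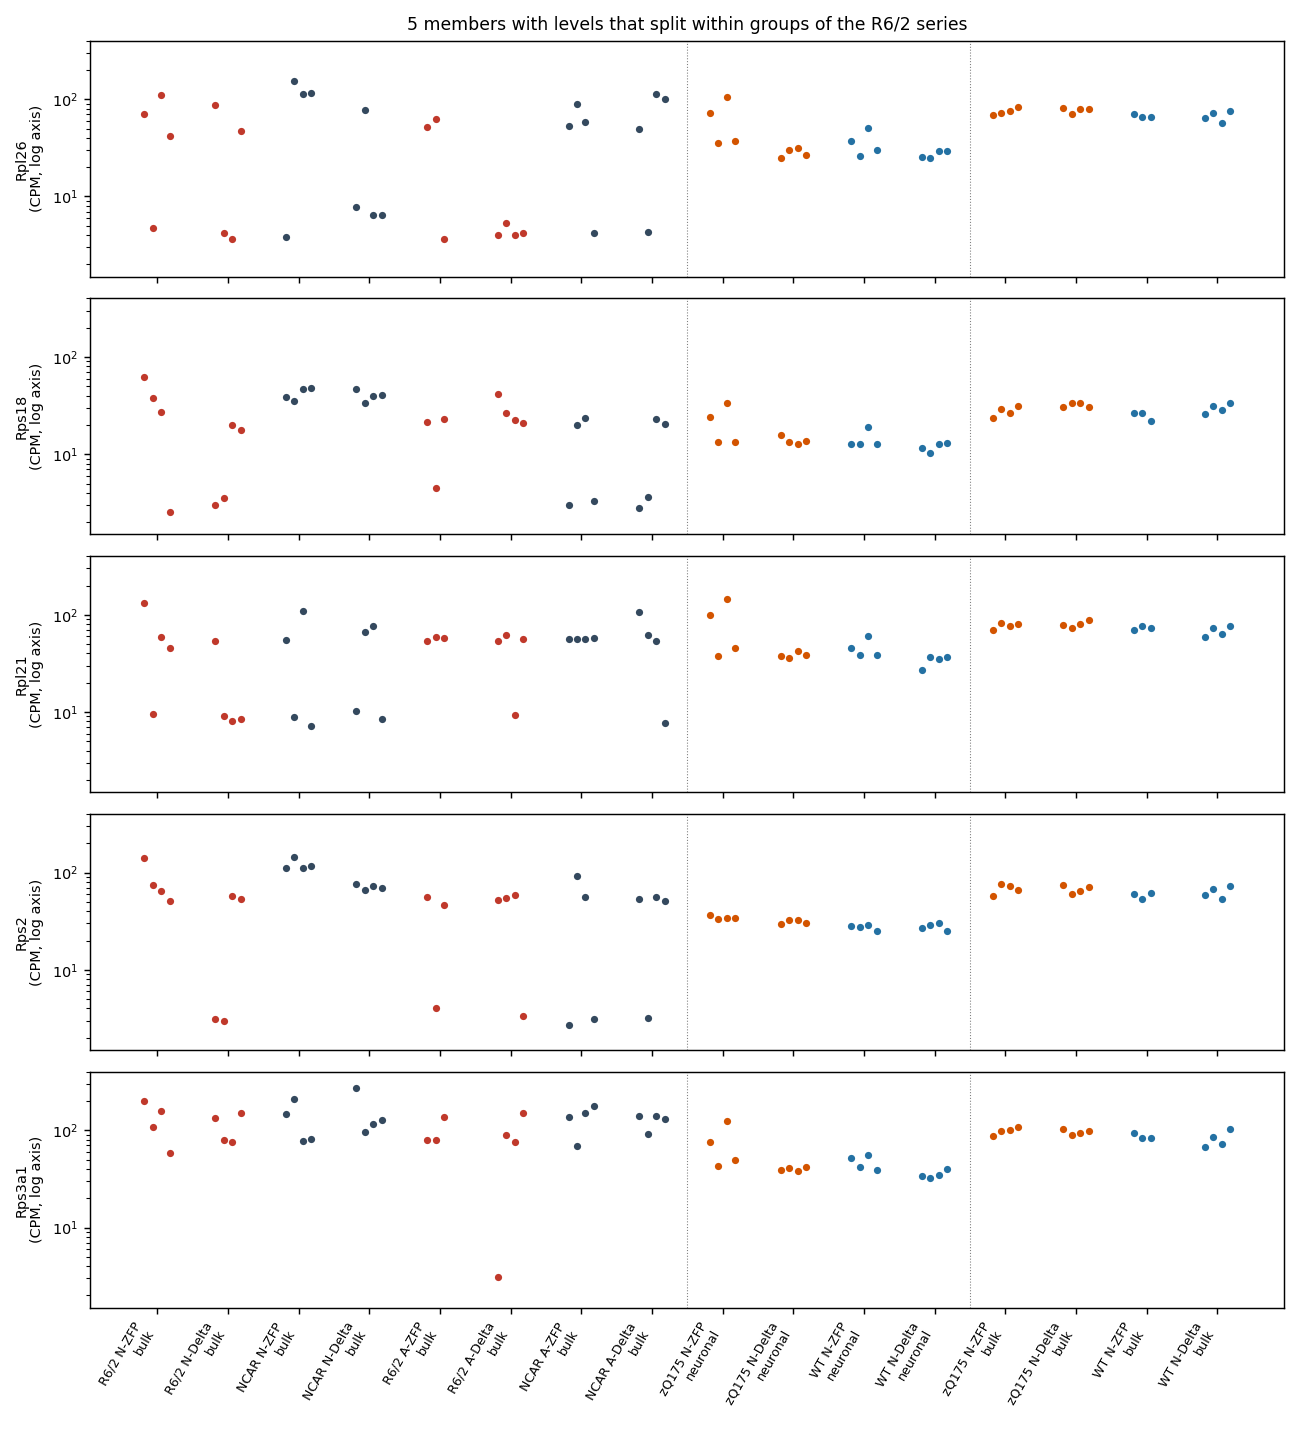
Levels of Rpl26, Rps18, Rpl21, Rps2 and Rps3a1 in CPM (log axis) in every library of both series, by group. Each gene falls into a high and a low level inside single groups, with no library between 7.84 and 41.8 CPM for Rpl26.

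Most members varied together within groups of the R6/2 series. After subtraction of group means, the correlation of a member with the mean of the family had a median of 0.85 over the 83 genes; 70 members exceeded 0.5 and 51 exceeded 0.8, and 5 were negative: Rpl21 (−0.38), Rpl4 (−0.31), Rpl26 (−0.26), Rps2 (−0.16) and Rpl3 (−0.06). The genes outside the family with the highest such correlation, of 21669, were Eif3i (0.961), a subunit of initiation factor 3, the pseudogene Rpl19-ps11 (0.960), Gabarap (0.956), Ndufb5 (0.955) and Gm10221 (0.952). These are correlations over 31 libraries of 1 series, which vary together in length index, and are given as a description. The outside rows named lie above the highest member, Rps25 (0.940). How many outside rows pass the same cuts is not given here, so varying together is not shown to be particular to the family.

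The target of the viruses was checked at the level of its gene. In bulk striatum with N-Delta, Htt had 196 to 217 CPM in zQ175 and 249 to 294 CPM in WT mice, and in neuronal RNA 267 to 348 CPM in zQ175 and 386 to 417 CPM in WT mice. In R6/2 mice Htt had 159, 163, 209 and 257 CPM with N-ZFP and 277, 235, 245 and 222 CPM with N-Delta. In NCAR mice it had 157 to 225 CPM with N-ZFP and 121 to 177 CPM with N-Delta, below its level in NCAR mice with A-Delta (202 to 267 CPM). Over all 16 neuronal libraries of the zQ175 series, with N-ZFP and N-Delta, Htt ran from 245 to 418 CPM. Its levels with N-ZFP are not given by group for that series, so no knock-down can be read there. The R6/2 transgene is not counted as a row of its own, so the values of the R6/2 series do not measure the knock-down of mHTT.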

How the data were processed

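The striatal RNA of 62 mouse libraries in 16 groups was sequenced after TruSeq stranded total RNA preparation, with RNA from an RNeasy Plus mini kit in the R6/2 series and a micro kit in the zQ175 series, per the labels' protocols. The deposited file holds whole-number read counts per Ensembl gene (48795 rows), made by the authors with STAR and HTSeq on mm10, per the submitters' processing notes; versions and the use of strand are not given in the sources used here, so reads of overlapping or near-identical genes may be split. Gene names, exonic lengths and places come from GENCODE M21, which holds 48435 of the rows (360 were not matched), and promoters from RefSeq (GRCm38.p6).

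Genes were tested with edgeR 4.0.16 (R 4.3.3): TMM scaling, filtering by expression with the group labels, 1 coefficient per group, and the quasi-likelihood test with Benjamini-Hochberg adjustment over all genes tested, called at 0.05. The 8 groups of the R6/2 series were fitted together, and zQ175-series bulk, neuronal and joint sets separately, for 21 comparisons. The SE is the log2 fold change divided by the root of F. CPM divide by the library total. The steps were tested on simulated data. Alternatives were DESeq2 1.42.0, RLE factors, TMM without the members, no filter, only the groups compared, a replicate block, a length index covariate (prior count 2 for log2 CPM), length and GC offsets, and leaving out each library. The labels do not say that a number marks 1 animal, though neuronal and bulk columns share numbers. Same-numbered libraries correlated above 0.1 in at most 3 of 4 pairs of a comparison. Between neuronal and bulk RNA it was 3 of 4 (0.037 to 0.263, mean 0.18, against a mean of −0.06 for other numbers). So few pairs cannot settle whether same-numbered libraries share an animal. Numbers were not taken as pairs in the main fits, and the replicate block, given below, used them.

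The members and the gene lists were chosen with earlier results of these data known. The text names a set panel of members, the 5 highest and 5 lowest fold changes of each comparison, and of other lists those with the smallest p; the rows like Rplp1, the genes with separate levels and called members outside this rule (Rpl29 between R6/2 and NCAR mice, for example) were chosen after their values were seen. Precision is limited by 3 or 4 libraries a group, and the floor of 3 counts covers counting error only. Values of a few single genes are not reported here, while counts over all 83 members include them.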

Additional observations from a re-analysis of the deposited data

Results flagged for a closer look

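The effect of N-ZFP against N-Delta differed between R6/2 and NCAR mice in 62 of 83 members by the interaction test (edgeR), all higher in R6/2. The NCAR N-Delta libraries enter this difference, and the length index moved with it, as given above; with the index as a covariate 0 members were called. Its part beyond that was not tested.

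Of 70 checks for a value far from the rest, each of 1 measure in 1 group of 4 libraries, 4 found one. For a single check chance gives about 1 in 20. The measures were the family level, the length index, Rplp1, Rpl22 and Rpl31, taken on the same libraries, so the checks are not independent. The length index of NCAR library 2 with A-Delta (−0.167) lay far below the other 3 of its group. Rplp1 was far below its group in NCAR bulk library 4 with N-Delta (421 CPM), in WT neuronal library 1 with N-Delta (57.4 CPM) and in zQ175 neuronal library 2 with N-Delta (62.5 CPM). The first of these Rplp1 values still lay above all 4 NCAR libraries with N-ZFP.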

How the results depend on the processing

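Depth limits the lowest members, with fewer counts in the zQ175 series, and neuronal N-ZFP results rest on libraries 1 and 3. The cause of the following changes was not tested. Of the counts of members called, 141 stayed within 1.5 times under other settings, 29 moved and 1 reversed. The share of all genes called under each setting, here and in the refits above, is not given. A count of members can therefore follow the call rate over all genes.

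Without the filter, members called were 29 for N-ZFP in NCAR, 2 in zQ175 bulk, 2 in WT bulk and 3 in zQ175 neuronal RNA. On the compared groups alone they were 13 for R6/2 against NCAR with A-Delta (1 higher, 12 lower), 0 with N-ZFP, 3 for N-ZFP in R6/2, 1 (higher, reversed) for N-ZFP in NCAR and 3 for zQ175 against WT neuronal RNA. The replicate block gave 1 call for zQ175 against WT neuronal RNA and 16 (all higher) for N-ZFP in zQ175 neuronal RNA, gave 77 (2 higher, 75 lower) for neuronal against bulk RNA, and moved no other count by over 1.5 times. DESeq2 called 1 for N-ZFP in WT bulk, 1 for zQ175 against WT neuronal RNA and 27 for N-ZFP in zQ175 neuronal RNA. Without neuronal N-ZFP libraries 1 and 3, added after seeing the data, 1 was called in zQ175 (median 0.10) and 1 in WT, and the median of the difference was 0.044; the choice of libraries partly fixes these.

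With the length index as covariate, calls were 21 for R6/2 against NCAR with A-Delta, 8 with N-Delta (median −0.16) and 4 with N-ZFP, 6 for N-ZFP in R6/2 (median 0.028), 0 in NCAR (median −0.092) and 0 for their difference (median 0.11), 0 for N-Delta against A-Delta in NCAR (median 0.071), 3 for N-ZFP in WT bulk, 2 for zQ175 against WT neuronal RNA (median −0.061), 1 for N-ZFP in zQ175 and 1 in WT neuronal RNA (median −0.10). Medians were −0.073 for A-ZFP in R6/2, −0.044 for the A-ZFP difference and −0.0083 for N-Delta against A-Delta in R6/2. With length and GC offsets, medians were −0.014 and −0.34 for R6/2 against NCAR with A-Delta and N-Delta and −0.82 for neuronal against bulk RNA, and calls were 17 for N-ZFP in NCAR (median −0.21), 35 for the N-ZFP difference (median 0.26) and 40 for N-Delta against A-Delta in NCAR (median 0.26).

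Leaving out 1 library at a time gave 3 to 7 calls (median −0.14 to −0.0092) for R6/2 against NCAR with A-Delta and 1 to 3 with N-ZFP, 2 to 54 for N-ZFP in R6/2, 0 to 65 in NCAR, 36 to 70 for N-Delta against A-Delta in NCAR (36 without NCAR N-Delta library 1), 1 to 9 for zQ175 against WT bulk, 0 to 1 for N-ZFP in WT bulk, 0 to 1 for zQ175 against WT neuronal RNA and 0 to 46 for N-ZFP in zQ175 neuronal RNA. Medians ran from −0.032 to 0.17 for the A-ZFP difference, −0.062 to 0.11 for A-ZFP in R6/2 and 0.090 to 0.49 for the neuronal N-ZFP difference.

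With mitochondrial counts left out of the total, the family had 6383 CPM in R6/2 A-Delta, 5791 in R6/2 N-Delta, and in bulk 5118 in zQ175 N-ZFP, 5742 in zQ175 N-Delta, 4707 in WT N-ZFP and 5374 in WT N-Delta. Without Rpl22, added after seeing the data, it had 4617 CPM in zQ175 N-Delta, 3966 in WT N-ZFP and 4134 in WT N-Delta bulk, and in neuronal RNA 3133 in zQ175 N-ZFP, 2255 in zQ175 N-Delta, 2364 in WT N-ZFP and 2075 in WT N-Delta.

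Called genes that changed sign with the covariate included, for R6/2 against NCAR with N-Delta, Rps20 (0.14), Rps6 (0.11), Rps4x (0.00024), Rps23 (0.052), Rpl7a (0.0036), Rpl27 (0.17), Rpl7l1 (0.13), Rpl36a (0.049) and Rps27 (0.17). For the N-ZFP difference they were Rpl10a (−0.020), Rpl22l1 (−0.046), Rpl27a (−0.026) and Rpl32 (−0.041), and for N-Delta against A-Delta in NCAR Rpl8 (−0.00044), Rplp2 (−0.056), Rps20 (−0.025), Rps21 (−0.042), Rps27rt (−0.0085), Rps10 (−0.079), Rpl36 (−0.022) and Rpl18 (−0.056). With offsets they included, in the same order of comparisons, Rps4x (0.10), Rps23 (0.26), Rpl30 (0.066), Rpl36a (0.20) and Rps27 (0.037), then Rps4x (−0.086), Rpl30 (−0.13) and Rpl31 (−0.17), then Rps4x (−0.070), Rps23 (−0.044), Rps27rt (−0.19), Rpl23a (−0.14), Rpl30 (−0.11) and Rpl31 (−0.18). For N-ZFP in NCAR, Rpl30 had 0.053 with offsets.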
